A study of Homo sapiens with 80 samples.

Results

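On day 8 of cardiomyocyte differentiation, 3 wells of a high purity differentiation of WTC11 were compared with 4 wells of a low purity differentiation of the same line. WTC11 is an established human induced pluripotent stem cell line. The wells were chosen by the purity class and the day in the sample labels, and they are 7 of the 56 libraries of the multi-omic experiment and 7 of the 80 libraries of the series. The high purity wells are numbered 1, 2 and 4 and came from cells at passage 52, and the low purity wells are numbered 1 to 4 and came from cells at passage 69. Both groups received CHIR99021, a GSK3 inhibitor that activates WNT signalling, on day 0 and IWP2, an inhibitor of WNT secretion, on day 2. From day 6 the B27 supplement of the medium held insulin in both. The purity class was assigned later, from the share of cells that stained for cardiac troponin T in flow cytometry on day 16. Each class is 1 differentiation sampled in several wells, so purity, passage and differentiation cannot be told apart, and the p-values below measure the spread between wells. In each list of values, the high purity wells follow in the order 1, 2 and 4, and the low purity wells in the order 1 to 4.

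The heart tube is built from cardiac mesoderm, whose cells switch on the transcription factors NKX2-5, GATA4, TBX5 and MEF2C and then the proteins of the sarcomere, the contractile unit of muscle. The same mesoderm can also give endocardium, the inner lining of the heart, and the proepicardium, whose cells cover the heart and supply fibroblasts and smooth muscle. Early cardiomyocytes make an embryonic set of sarcomere proteins and move from glycolysis towards oxidative metabolism as they mature.

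Poly(A) RNA was sequenced, and expression is given as the deposited TPM, a measure of abundance per transcript length. The recovered read totals were 9816603 to 12832660 in the low purity wells and 11931069 to 17974520 in the high purity wells. The mitochondrial ribosomal RNA RNR2 accounted for 17.0% to 24.7% of TPM in the high purity wells and 17.1% to 20.8% in the low purity wells. RN7SK, a small nuclear RNA, accounted for 10.5% to 11.7% and 7.87% to 9.78%. The RNR2 ranges overlapped and high purity well 4 stood apart at 24.7%, whereas every high purity well was above every low purity well for RN7SK. TMM factors of 0.820 to 0.976 in the high purity wells and 1.05 to 1.09 in the low purity wells were applied before the test. All fold changes are differences of log2(TPM + 1) after this scaling, high minus low, with their standard error (SE), and they understate the change of genes at a few TPM. A gene was called when limma gave a Benjamini-Hochberg adjusted p under 0.05 over all tested genes and the absolute log2 fold change was at least 1. Across all 43388 genes, without filter or TMM scaling, each well correlated most closely with a well of its own group among the 55 other libraries.

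A level of 1 TPM or more in 3 or more of the 7 wells was reached by 19370 genes, and of these 3089 were called (15.9%). Among the calls, 1127 were higher in the high purity wells (5.82% of the tested genes) and 1962 higher in the low purity wells (10.1%). The split by direction depended on the scaling: 36.5% of calls pointed to high purity with TMM and 24.2% did with TPM as deposited, where the median of all genes moved from -0.04 to -0.23. A log2 fold change of at least 2 in size was reached by 219 of the calls towards high purity and 495 of those towards low purity. The calls included 1810 protein-coding genes and 749 long non-coding RNAs. The groups of wells did not overlap for 2969 of the 3089 called genes, against 50.9% of all tested genes (13.6% with the high purity wells above and 37.3% with the low purity wells above). Here and below, the overlap of wells was judged on TPM as deposited, without TMM. The split of 13.6% and 37.3% can therefore depend on the scaling.

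**Figure D1:**
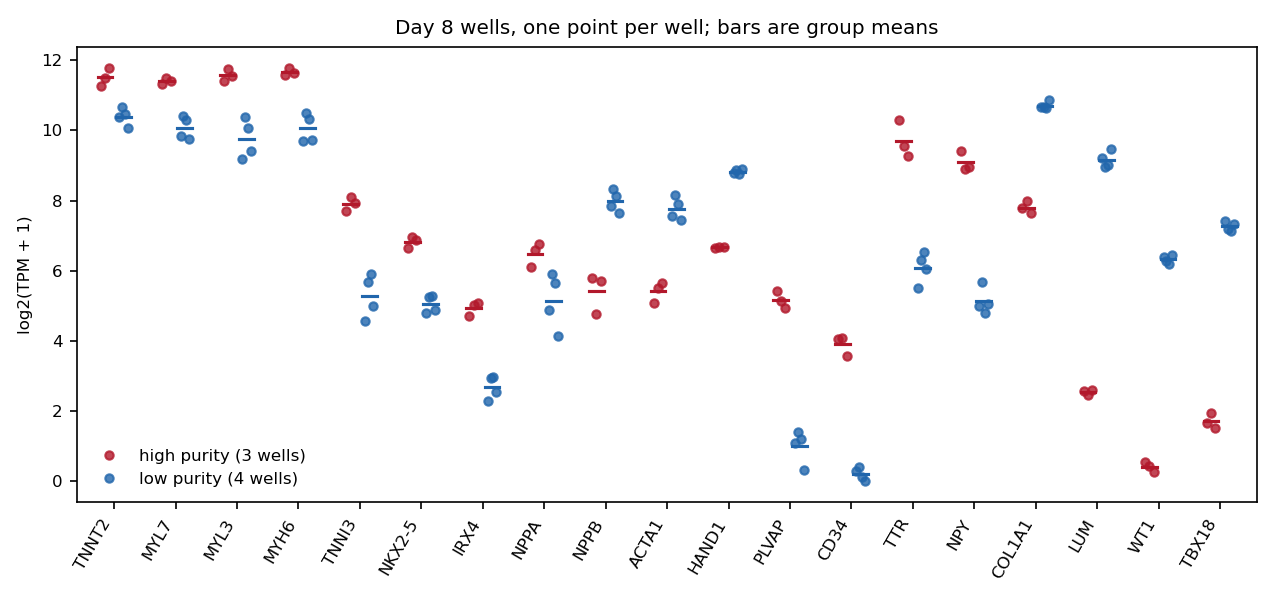
Expression of 19 genes in each day 8 well as log2(TPM + 1), grouped by role; points are wells, bars are group means of 3 high purity and 4 low purity wells. Contractile genes such as TNNT2 and MYH6 were abundant in both groups and higher in the high purity wells, whereas LUM, WT1 and TBX18 were low in the 3 high purity wells and far higher in the 4 low purity wells.

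Both groups carried abundant RNA of cardiac sarcomere genes, and most of these genes were higher in the high purity wells. TNNT2, which encodes the cardiac troponin T that later defined purity, measured 2474, 2874 and 3507 TPM in the high purity wells and 1328, 1640.1, 1404 and 1071 TPM in the low purity wells. The wells did not overlap, and the gene was higher in the high purity wells (log2 fold change 1.35 ± 0.20 SE, adjusted p = 0.0012). The exact two-sided permutation test over wells gave p = 0.0571, the smallest value that 35 splits of 3 against 4 wells can give. In these bulk samples, fewer cardiomyocytes and less RNA per cardiomyocyte cannot be told apart.

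The thick filament genes encode the myosins and the proteins that hold them. Of 13 listed genes, 10 were tested and 6 were higher in the high purity wells, none was called in the other direction, and the list had a median log2 fold change of 1.31 against -0.04 for all tested genes. The summed TPM of the list was 11496 to 13738 in the high purity wells and 3658 to 6252 in the low purity wells. MYH6, the atrial and early myosin heavy chain, measured 3056, 3534 and 3186 TPM against 829, 1439.7, 1273 and 848 TPM (log2 fold change 1.84 ± 0.21 SE, adjusted p = 0.00033). Low purity wells 2 and 3 stood above low purity wells 1 and 4, and all 4 lay below every high purity well. MYL3, a myosin essential light chain, measured 2731, 3412 and 2994 TPM against 585, 1333, 1072 and 685 TPM (log2 fold change 2.03 ± 0.28 SE, adjusted p = 0.00079) and showed the same order among the low purity wells. The atrial light chains MYL7 and MYL4 had log2 fold changes of 1.55 and 1.77. MYBPC3, the cardiac myosin-binding protein, and MYOM1, a protein of the M-line, were the other calls, with log2 fold changes of 1.55 and 1.06. MYH7, the slow myosin heavy chain of the ventricle, measured 61.1, 81.4 and 84.8 TPM against 60.8, 126, 105 and 67.8 TPM (log2 fold change 0.03 ± 0.28 SE, adjusted p = 0.94), and its difference turned to -0.20 without TMM. TTN, the giant spring of the sarcomere, measured 287, 363 and 337 TPM against 335, 503, 442 and 356 TPM (log2 fold change -0.07 ± 0.17 SE, adjusted p = 0.74). The ventricular light chain MYL2 measured 0.306, 0 and 0.745 TPM against 0, 3.02, 0 and 0 TPM and, with MYBPHL and MYOM2, did not reach the level for testing.

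Of 12 tested thin filament genes, 7 were higher in the high purity wells and 1 was higher in the low purity wells, with a median log2 fold change of 1.28. TNNI3, the cardiac troponin I that replaces the slow skeletal form as the heart matures, measured 206, 272 and 245 TPM against 22.6, 49.9, 58.7 and 30.9 TPM (log2 fold change 2.85 ± 0.31 SE, adjusted p = 0.00028). TNNI1, the slow form present in the embryonic heart, measured 620.4, 792 and 716 TPM against 181, 293, 279 and 230.4 TPM (log2 fold change 1.77 ± 0.18 SE, adjusted p = 0.00019). TNNI3 made up the smaller part of troponin I in both groups. ACTC1, the cardiac actin, measured 3344, 3765 and 3309 TPM against 1707, 2888, 2608 and 1826 TPM (log2 fold change 0.88 ± 0.20 SE, adjusted p = 0.0077) and missed the fold threshold. ACTA1, the skeletal actin that is also made in fetal and stressed hearts, went the other way at 33.1, 44.2 and 49.5 TPM against 188, 284, 236 and 174 TPM (log2 fold change -2.12 ± 0.22 SE, adjusted p = 0.00022). All 4 low purity wells of ACTA1 lay far above the 3 high purity wells.

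The 250 bases before the RefSeq start of TNNI3 are shown because this gene had the largest log2 fold change of the listed contractile genes and both groups express the GATA factors whose short motif it carries. They lie at chr19:55157733-55157982 in GRCh38.p14 and are written 5′ to 3′ on the minus strand, on which the gene is read. Capitals mark the 2 matches to the GATA motif AGATAA, searched on both strands and found here in reverse. Of 35116 promoters in the table, 9.17% held this motif in the same window.
TNNI3: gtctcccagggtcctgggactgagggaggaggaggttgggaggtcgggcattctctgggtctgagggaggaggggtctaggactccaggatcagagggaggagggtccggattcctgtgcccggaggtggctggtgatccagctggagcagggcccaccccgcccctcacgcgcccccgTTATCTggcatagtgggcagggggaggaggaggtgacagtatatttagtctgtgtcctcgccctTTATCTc

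The matches are a description of the letters and not of binding. GATA4, which is expressed in cardiac mesoderm and myocardium, measured 63.2, 66 and 63.1 TPM in the high purity wells and 147, 157, 151 and 152 TPM in the low purity wells (log2 fold change -1.00 ± 0.06 SE, adjusted p = 2.1e-05).

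Among 18 tested genes of the Z-disc and costamere, which anchor the filaments and link them to the membrane, 11 were higher in the high purity wells and none in the low purity wells (median 1.18). FHL2, a LIM domain protein of the sarcomere, measured 40.1, 58.4 and 41.3 TPM against 7.47, 13, 13.4 and 9.44 TPM (log2 fold change 2.24 ± 0.21 SE, adjusted p = 0.00014). HSPB7, a small heat shock protein of heart muscle, measured 403, 524 and 508 TPM against 87.4, 175, 147 and 100.5 TPM (log2 fold change 2.17 ± 0.25 SE, adjusted p = 0.00033). The cross-linker ACTN2 (log2 fold change 1.75), the titin cap TCAP (1.95) and the methyltransferase SMYD1 (1.72), which is needed for sarcomere assembly, were also higher in the high purity wells. ANKRD1, a stress-responsive ankyrin repeat protein, measured 1137, 939 and 1134 TPM against 1652, 2496, 2291 and 1576 TPM. Its low purity wells all lay above its high purity wells, as in 37.3% of all tested genes, but the difference missed the fold threshold (log2 fold change -0.65 ± 0.19 SE, adjusted p = 0.025).

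Calcium handling genes included calls in both directions. Of 17 tested, 5 were higher in the high purity wells and 2 in the low purity wells, with a median of 0.67. Without TMM the counts were 3 and 3 (median 0.45). Of all tested genes, 5.82% were called towards high purity and 10.1% towards low purity. The count of 2 towards low purity was near that share. HRC, a calcium-binding protein of the sarcoplasmic reticulum, measured 116, 141 and 151 TPM against 34.3, 54.6, 45.6 and 27.8 TPM (log2 fold change 1.98 ± 0.24 SE, adjusted p = 0.0004). The calsequestrin CASQ1 and triadin TRDN, which sit beside the release channel, had log2 fold changes of 1.48 and 1.44. SLN, sarcolipin, which inhibits the calcium pump, was higher in the low purity wells at 6.69, 5.94 and 3.43 TPM against 22.3, 28.2, 24.6 and 23.4 TPM (log2 fold change -1.85 ± 0.15 SE, adjusted p = 7.9e-05). The other small inhibitor of the pump, PLN, measured 160.1, 185 and 173 TPM against 144, 231, 214 and 168 TPM (log2 fold change 0.12 ± 0.17 SE, adjusted p = 0.58), a difference that turned to -0.11 without TMM. The pump ATP2A2 measured 264, 281 and 248 TPM against 199, 281, 266 and 207 TPM (log2 fold change 0.39 ± 0.13 SE, adjusted p = 0.036), and its wells overlapped. SLC8A1, the sodium-calcium exchanger, had a log2 fold change of 1.05 that was just over the threshold and lost its call at 0.82 without TMM and at 0.93 to 0.98 when high purity well 4, low purity well 1 or low purity well 4 was left out. The second gene called towards low purity, the calcium channel subunit CACNA2D1, lost its call without high purity well 1 (-0.97).

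Of 17 tested ion channel and pacemaking genes, 5 were higher in the high purity wells and 2 in the low purity wells. The latter count was near the 10.1% of all tested genes, and the former stood against 5.82%. The list median of 0.19 moved to -0.03 without TMM. KCNJ3, a subunit of the acetylcholine-gated potassium channel of atrial and nodal cells, measured 2.03, 0.833 and 0.918 TPM against 79.3, 69, 65 and 79.9 TPM (log2 fold change -4.91 ± 0.17 SE, adjusted p = 1.9e-06). Its partner subunit KCNJ5 went the opposite way at 21.8, 24.5 and 25.5 TPM against 5.61, 9.1, 9.87 and 5.93 TPM (log2 fold change 1.77 ± 0.21 SE, adjusted p = 0.00037), so the 2 subunits of this channel were higher in different groups. The potassium channel KCNA5 was higher in the high purity wells (log2 fold change 1.83). The pacemaker channel HCN4 measured 55.4, 61.2 and 57.4 TPM against 76.1, 97.7, 90.3 and 82.9 TPM (log2 fold change -0.34 ± 0.10 SE, adjusted p = 0.023). GJA1, the connexin of working myocardium, was higher in the low purity wells (log2 fold change -1.07 ± 0.11 SE, adjusted p = 0.0002) but lost its call without high purity well 4 (-0.95).

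The cardiac transcription factors split. Of 27 tested, 7 were higher in the high purity wells and 5 in the low purity wells, and the median was 0.37. The shares over all tested genes were 5.82% and 10.1%. The count towards low purity fell to 3 without high purity well 2. It was 4 with RLE in place of TMM scaling, with the well number as a block and with edgeR. NKX2-5, a core factor of heart muscle, measured 99.5, 123 and 116 TPM against 26.9, 37, 37.6 and 28.3 TPM (log2 fold change 2.00 ± 0.16 SE, adjusted p = 5.5e-05). TBX3, a repressor that shapes the conduction system, measured 203, 151 and 127 TPM against 22.3, 41.8, 40.2 and 28.7 TPM (log2 fold change 2.48 ± 0.22 SE, adjusted p = 0.0001). IRX4, a ventricular factor, measured 25.3, 31.6 and 33.1 TPM against 3.88, 6.71, 6.82 and 4.9 TPM (log2 fold change 2.46 ± 0.21 SE, adjusted p = 8.2e-05). In all 3 genes every high purity well stood well above every low purity well. MEF2C (1.73), ISL1 (1.25), MYOCD (1.04) and PROX1 (1.02) completed the calls in that direction.

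HAND1, a factor of the first heart field and of extraembryonic mesoderm, was higher in the low purity wells at 99.9, 102 and 101 TPM against 441, 465, 428 and 482 TPM (log2 fold change -1.93 ± 0.07 SE, adjusted p = 2.1e-06). ZFPM2, a cofactor of GATA4 in heart and epicardium, measured 13.3, 16.8 and 14.5 TPM against 64.5, 64.4, 60.5 and 70.5 TPM (log2 fold change -1.84 ± 0.10 SE, adjusted p = 1.1e-05). TBX18, a factor of the proepicardium and sinus horns, measured 2.17, 2.88 and 1.85 TPM against 171, 145, 140.3 and 159 TPM (log2 fold change -5.38 ± 0.11 SE, adjusted p = 1.6e-07). With GATA4 and NR2F1 these made up the calls towards low purity. TBX5, HAND2, GATA6 and MEF2A were not called, with log2 fold changes of -0.23, 0.41, -0.04 and 0.26. The core factors were therefore present in both groups and differed gene by gene.

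Among 13 tested natriuretic and secreted factors, 6 were higher in the high purity wells and 2 in the low purity wells, against 5.82% and 10.1% of all tested genes. The natriuretic hormones moved apart. NPPA, the atrial hormone, measured 67.8, 96 and 108 TPM against 28.4, 59.1, 49.4 and 16.5 TPM (log2 fold change 1.57 ± 0.42 SE, adjusted p = 0.018), and lost its call without high purity well 4 (1.36, adjusted p = 0.0596). NPPB, the hormone that rises with wall stress, measured 54.6, 26.3 and 51.6 TPM against 227, 320.4, 280.4 and 201 TPM (log2 fold change -2.34 ± 0.28 SE, adjusted p = 0.00044). Its 4 low purity wells all exceeded the 3 high purity wells. NPR1, the receptor that both hormones share, was also higher in the low purity wells at 5.07, 5.73 and 3.12 TPM against 43.6, 36.8, 38.6 and 43.7 TPM (log2 fold change -2.71 ± 0.14 SE, adjusted p = 8.6e-06). CORIN, the protease that activates the atrial hormone, was higher in the high purity wells (log2 fold change 1.88 ± 0.23 SE, adjusted p = 0.00049). So were VEGFA, the main growth factor of endothelium, at 502, 426 and 428 TPM against 224, 222, 206 and 191 TPM (log2 fold change 1.32 ± 0.08 SE, adjusted p = 1.9e-05), and the apelin receptor APLNR (1.78).

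**Figure D2:**
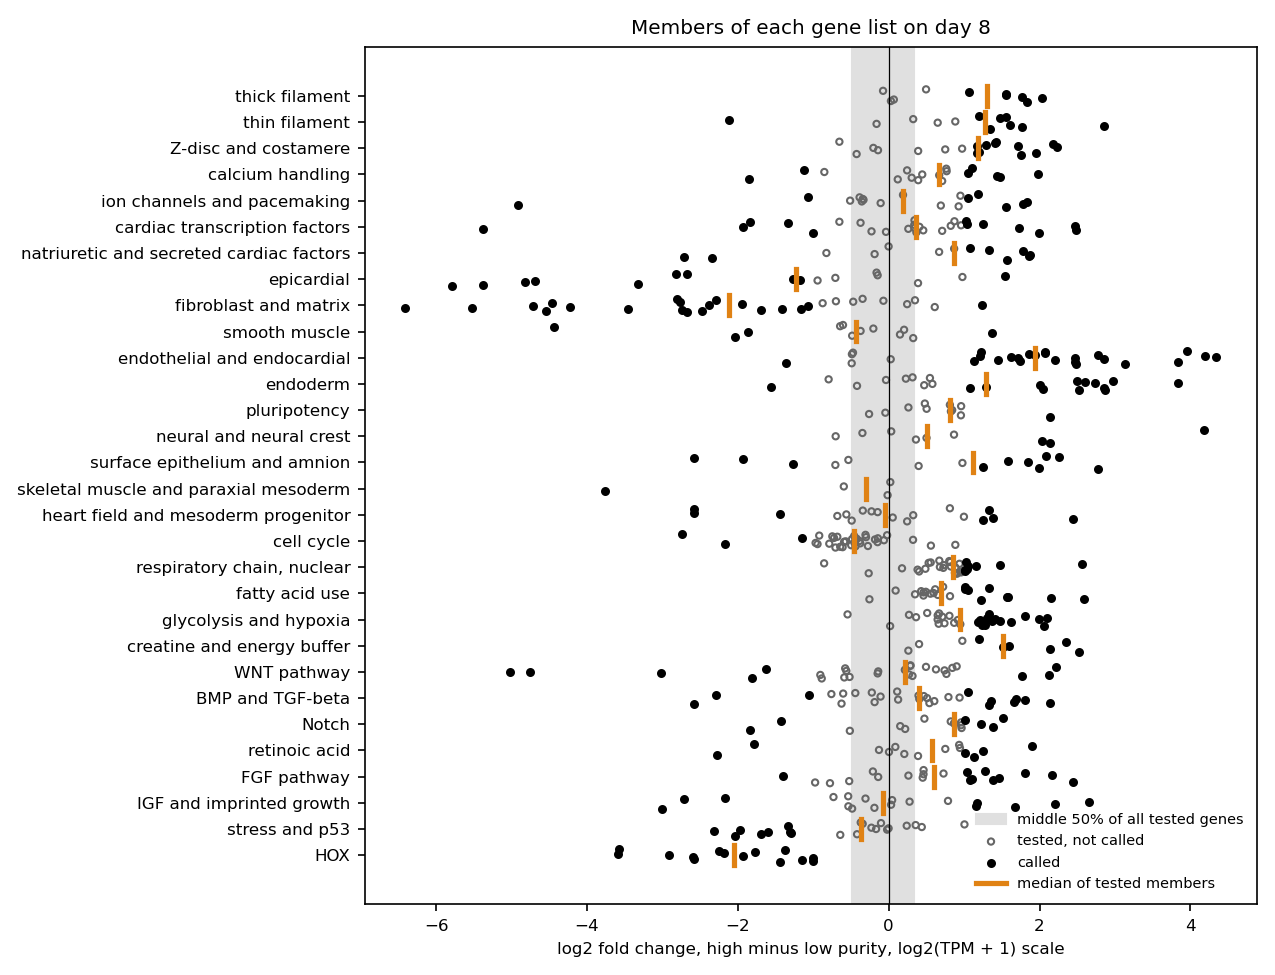
Log2 fold change (high minus low) of the tested members of 30 gene lists; filled black points were called, open points were not, the orange mark is the list median and the grey band holds the middle 50% of all tested genes. The medians of the thick and thin filament, endothelial, endoderm and glycolysis lists lie to the right of the band, and those of the epicardial, fibroblast and matrix, and HOX lists to its left.

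Many epicardial and matrix genes were higher in the low purity wells. Of 19 epicardial genes 16 were tested, 9 were higher in the low purity wells and 1 was higher in the high purity wells (median -1.23). The summed TPM was 3913 to 4346 in the high purity wells and 8155 to 8852 in the low purity wells. KRT8, the most abundant member of the list, is a keratin of simple epithelium and early cardiac cells. It measured 2116 to 2316 TPM and 4119 to 4331 TPM, so the sum does not stand for epicardial RNA alone. Of the tested members, 4, of which 3 were called, passed the filter through the low purity wells alone and had to differ. WT1, a factor that defines the epicardium, measured 0.478, 0.345 and 0.208 TPM against 82.5, 77.2, 72.3 and 87 TPM (log2 fold change -5.79 ± 0.10 SE, adjusted p = 1.4e-07). BNC1, a zinc finger protein of mesothelium, measured 4.56, 5.56 and 4.01 TPM against 204, 161, 166 and 206 TPM (log2 fold change -4.82 ± 0.12 SE, adjusted p = 4.7e-07). PODXL, a surface sialomucin of mesothelium and pluripotent cells, measured 203, 204 and 165 TPM against 1689, 1469, 1411 and 1736 TPM (log2 fold change -2.82 ± 0.09 SE, adjusted p = 1.1e-06). TCF21, which marks epicardial fibroblast precursors, had a log2 fold change of -3.32. In the high purity wells WT1 lay below 1 TPM and BNC1 at a few TPM, whereas PODXL was still abundant there. ALDH1A2, the retinoic acid enzyme of mature epicardium, measured 1.04, 1.48 and 1.24 TPM against 0.71, 1.08, 0.972 and 0.718 TPM (log2 fold change 0.39 ± 0.17 SE, adjusted p = 0.098), and the mesothelial genes UPK3B, MSLN and ITLN1 did not reach the level for testing. SEMA3D, a guidance factor of the proepicardium, was higher in the high purity wells (log2 fold change 1.55 ± 0.12 SE, adjusted p = 5.3e-05). The part of epicardial RNA in the other differences was not tested.

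Of 28 tested fibroblast and matrix genes, 19 were higher in the low purity wells and 1 in the high purity wells, with a median of -2.11. The summed TPM was 5456 to 7891 against 10060.4 to 11159.9, and 3 members, 2 of them called, passed the filter through the low purity wells alone and had to differ. LUM, a collagen-binding proteoglycan, measured 4.95, 4.49 and 5.1 TPM in the high purity wells and 596, 496, 512 and 706 TPM in the low purity wells (log2 fold change -6.41 ± 0.14 SE, adjusted p = 2.3e-07). COL3A1, a fibrillar collagen, measured 62.8, 64.2 and 57.9 TPM against 1750.0, 1569, 1568 and 1952 TPM (log2 fold change -4.54 ± 0.09 SE, adjusted p = 1.6e-07). The low purity wells of LUM also varied among themselves, with wells 1 and 4 above wells 2 and 3, the reverse of the order seen for MYH6. DCN, a related proteoglycan, measured 0.133, 0.0842 and 0.0203 TPM against 61.7, 39.1, 45.3 and 68.5 TPM (log2 fold change -5.53 ± 0.20 SE, adjusted p = 2.1e-06). POSTN (-4.71), DDR2 (-4.46), FMOD (-4.22), COL6A3 (-3.45) and PDGFRB (-1.94) had the same direction. FN1, fibronectin, was the exception at 6137, 5221 and 3688 TPM against 2006, 2725, 2626 and 2428 TPM (log2 fold change 1.24 ± 0.15 SE, adjusted p = 0.00048) and supplied most of the list's TPM in the high purity wells. PDGFRA, a receptor of early mesoderm and fibroblasts, measured 132, 190.4 and 154 TPM against 154, 157, 151 and 158 TPM (log2 fold change 0.24 ± 0.12 SE, adjusted p = 0.14).

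Smooth muscle genes gave 3 calls towards low purity and 1 towards high purity among 12 tested, with summed TPM of 1578 to 1763 against 1858 to 2272. Of all tested genes, 10.1% were called towards low purity and 5.82% towards high purity, and the count of 1 was near the latter share. MYH11, the defining smooth muscle myosin, was at 0 in all 7 wells. ACTG2, the enteric smooth muscle actin, measured 0.191, 0 and 1.05 TPM against 38.3, 34.4, 27.8 and 26.2 TPM (log2 fold change -4.44 ± 0.29 SE, adjusted p = 2.3e-05). TAGLN, an actin-binding protein that early cardiomyocytes also make, measured 42.1, 38.1 and 38 TPM against 168, 219, 189 and 201 TPM (log2 fold change -2.04 ± 0.09 SE, adjusted p = 3.9e-06). CALD1 had a log2 fold change of -1.86, and TPM2 of 1.36. ACTA2, the most abundant member, measured 791, 915 and 714 TPM against 562, 907, 829 and 748 TPM (log2 fold change 0.33 ± 0.15 SE, adjusted p = 0.12), and its wells overlapped.

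The 250 bases before the RefSeq start of ACTG2 are shown because this gene also had the largest negative change between day 6 and day 8 among the ranked genes described below. They lie at chr2:73892758-73893007 in GRCh38.p14 on the plus strand. Capitals mark 2 CArG boxes, the motif of serum response factor, and a TATAAA match that reads on the opposite strand. CArG boxes occurred in 1.16% of the 35116 promoters and TATAAA in 10.7%, with both strands searched.
ACTG2: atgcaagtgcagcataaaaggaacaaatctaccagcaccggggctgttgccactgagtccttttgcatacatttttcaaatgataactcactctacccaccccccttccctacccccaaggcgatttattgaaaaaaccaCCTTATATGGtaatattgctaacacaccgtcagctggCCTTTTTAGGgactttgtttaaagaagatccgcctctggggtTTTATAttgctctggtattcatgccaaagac

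The same search found no CArG, MEF2, GATA or TATAAA match in the windows of 4 WT1 starts and 2 MYL3 starts, which says only that these letters are not there.

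Most tested endothelial and endocardial genes were higher in the high purity wells. Of 29 listed, 27 were tested, 22 were higher in the high purity wells and 1 in the low purity wells (median 1.94). The summed TPM was 381 to 498 against 302 to 334. Of the tested members, 11 passed the filter only through the 3 high purity wells and had to differ, so the count fell to 11 calls among 15 or 16 tested genes when any one high purity well was left out. PLVAP, the diaphragm protein of fenestrated endothelium, measured 42.3, 34.5 and 29.9 TPM against 1.15, 1.64, 1.31 and 0.242 TPM (log2 fold change 4.35 ± 0.25 SE, adjusted p = 1.3e-05). ECSCR, an endothelial sialomucin, measured 91.2, 76.7 and 68.3 TPM against 5.73, 3.56, 5.67 and 4.83 TPM (log2 fold change 3.96 ± 0.15 SE, adjusted p = 2.4e-06). CD34, a surface protein of endothelial and blood progenitors, measured 15.7, 15.9 and 11 TPM against 0.234, 0.335, 0.089 and 0 TPM (log2 fold change 3.83 ± 0.16 SE, adjusted p = 3.7e-06). CDH5, the endothelial cadherin, had a log2 fold change of 3.13 and PECAM1 of 2.49.

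The receptors that bind VEGFA were not called. KDR measured 123, 107 and 98.5 TPM against 179, 174, 170.2 and 196 TPM (log2 fold change -0.49 ± 0.07 SE, adjusted p = 0.00068), and FLT1 measured 51.7, 56.2 and 49.4 TPM against 91.9, 82.8, 80.4 and 87.8 TPM (log2 fold change -0.47 ± 0.07 SE, adjusted p = 0.0011). In both, every low purity well was above every high purity well, as in 37.3% of all tested genes, and the difference was under the fold threshold. KDR is also made by cardiac mesoderm, so it does not mark endothelium alone. TEK, the angiopoietin receptor, was higher in the low purity wells at 6.5, 5.89 and 4.25 TPM against 19.1, 16.1, 17.5 and 19.6 TPM (log2 fold change -1.35 ± 0.12 SE, adjusted p = 8.9e-05). Of 14 blood genes only 2 were tested and none was called, with summed TPM of 3.93 to 7.61 in the high purity wells and 5.02 to 8.47 in the low purity wells. HBG1, HBA1 and PTPRC were at 0 in all 7 wells.

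The high purity wells also had more RNA of many endoderm genes. Of 21 tested endoderm genes, 12 were higher in the high purity wells and 1 in the low purity wells (median 1.29, summed TPM 2041 to 3452 against 814 to 1169). Among the 12 calls, 1 member passed the filter through the high purity wells alone and had to differ. TTR, the thyroid hormone carrier of visceral endoderm and liver, measured 1265, 747 and 618 TPM against 44.2, 78.4, 91 and 65 TPM (log2 fold change 3.84 ± 0.27 SE, adjusted p = 3.6e-05). FOXA2, a pioneer factor of endoderm, measured 56.3, 45.3 and 43.6 TPM against 6.54, 7.21, 7.08 and 6.26 TPM (log2 fold change 2.87 ± 0.09 SE, adjusted p = 1.3e-06). HHEX, a factor of anterior endoderm that is also active in endothelium, measured 212, 160.2 and 134 TPM against 20.0, 29.3, 27.1 and 20.2 TPM (log2 fold change 2.97 ± 0.16 SE, adjusted p = 1e-05). The epithelial surface genes EPCAM and CDH1 had log2 fold changes of 2.73 and 2.60. AFP, a fetal liver and yolk sac protein, was higher in the low purity wells at 84.1, 42.3 and 35.3 TPM against 123, 204, 211 and 176 TPM (log2 fold change -1.56 ± 0.28 SE, adjusted p = 0.0027). FGB and SERPINA1, later liver proteins, were not called (log2 fold changes 0.23 and 0.55). Endoderm RNA and cardiac RNA were thus both higher in the same 3 wells, and the part of either in the other was not tested.

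Of 20 pluripotency genes 11 were tested and 1 was called, towards high purity, where 5.82% of all tested genes were called. The defining factors POU5F1 and NANOG did not reach the level for testing, with means of 0.0615 TPM and 0 TPM in the high purity wells and 0 TPM and 0.0533 TPM in the low purity wells. SOX2, which is also a factor of foregut endoderm and neural cells, was the call (log2 fold change 2.14 ± 0.27 SE, adjusted p = 0.0005). LIN28A, an RNA-binding protein kept in early embryonic tissue, measured 456, 391 and 318 TPM against 201, 253, 256 and 219.9 TPM (log2 fold change 0.96 ± 0.10 SE, adjusted p = 0.00026) and passed the fold threshold without high purity well 4, where ZFP42 also passed and the list had 3 calls, as it did with edgeR.

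Among 9 tested neural and neural crest genes, 3 were higher in the high purity wells. NPY, neuropeptide Y, measured 680.1, 481 and 494 TPM against 30.8, 50.3, 27 and 32.4 TPM (log2 fold change 4.18 ± 0.20 SE, adjusted p = 5.8e-06). OTX2, a factor of forebrain and anterior endoderm, had a log2 fold change of 2.03, and the third call was SOX2. The defining neural genes PAX6, SOX1 and FOXD3 were at a mean of 0 TPM in the high purity wells. Of 14 tested surface epithelium and amnion genes, 7 were higher in the high purity wells and 3 in the low purity wells. The epithelial splicing and transcription factors ESRP1 and GRHL2 had log2 fold changes of 2.09 and 2.26, and GABRP, a GABA receptor subunit, of 2.77. GABRP and 1 other called member passed the filter through the high purity wells alone and had to differ. KRT8, a keratin of simple epithelium and early cardiac cells, was abundant at 2316, 2116 and 2192 TPM against 4253, 4331, 4119 and 4181 TPM (log2 fold change -0.71 ± 0.10 SE, adjusted p = 0.00079), and its partner KRT18 was called towards low purity (-1.27). Of 4 tested skeletal muscle and paraxial mesoderm genes 1 was called, MEOX1, a homeobox gene of somites and limb and body wall mesenchyme, at 0, 0 and 0.282 TPM against 15.7, 13.5, 14.8 and 15.6 TPM (log2 fold change -3.75 ± 0.16 SE, adjusted p = 3.5e-06). MEOX1 passed the filter through the low purity wells alone and had to differ. MYF5 and PAX7 were at 0 in all 7 wells.

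HOX genes give cells their position along the body axis, and all of the tested ones were higher in the low purity wells. Of 24 HOX genes listed, 14 were tested and 14 were called, but 9 of them passed the filter through the low purity wells alone and had to differ. The calls fell to 12 without high purity well 1, low purity well 3 or low purity well 4, and to 12 with the well number as a block. The members HOXA7, HOXA9, HOXD1 and HOXD3 were at 0 in all wells. The summed TPM was 44.9 to 67.2 in the high purity wells and 251 to 306 in the low purity wells. HOXB4, the most abundant, measured 13.8, 24.4 and 26.2 TPM against 100.3, 93.4, 86.7 and 104 TPM (log2 fold change -1.94 ± 0.24 SE, adjusted p = 0.00044). HOXB2, of a more anterior level in the same cluster, measured 23.3, 31.6 and 20.7 TPM against 57.4, 50.9, 65.8 and 64 TPM (log2 fold change -1.00 ± 0.14 SE, adjusted p = 0.0008). HOXB6 measured 0.114, 0 and 0.278 TPM against 17.4, 12.7, 10.3 and 15.2 TPM (log2 fold change -3.59 ± 0.20 SE, adjusted p = 1.2e-05), and HOXC8, of a trunk level, measured 0.21, 0.0887 and 0.128 TPM against 18.8, 11, 10.3 and 16 TPM (log2 fold change -3.57 ± 0.22 SE, adjusted p = 1.9e-05). HOXB1, a gene of the posterior heart field and hindbrain, had a log2 fold change of -2.58.

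**Figure D3:**
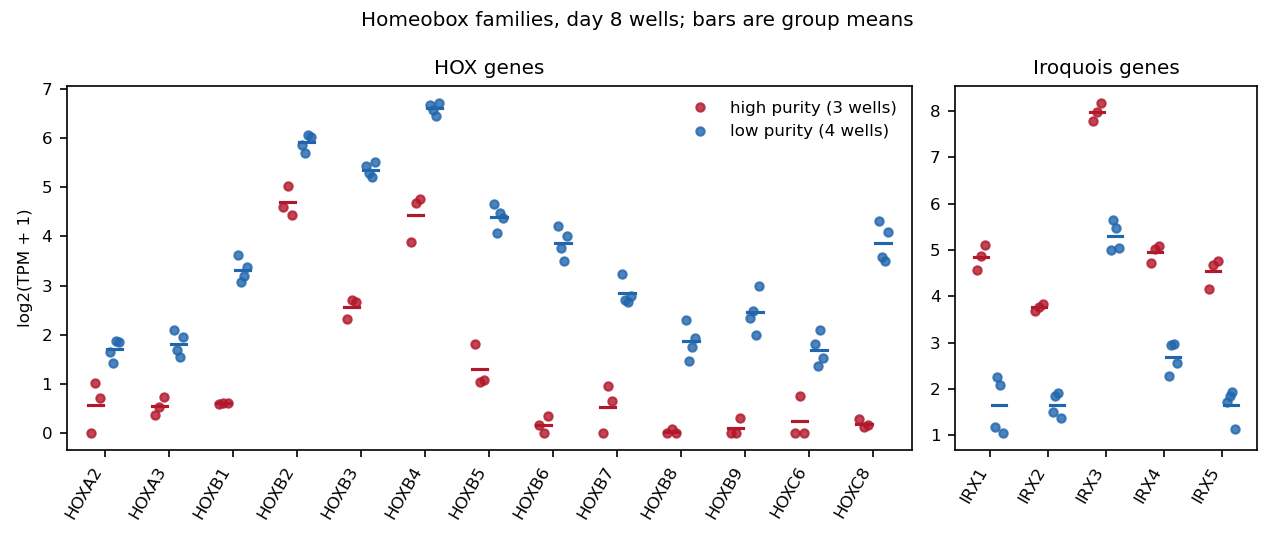
Expression of 13 of the 14 tested HOX genes and 5 tested Iroquois (IRX) genes in each day 8 well as log2(TPM + 1); points are wells of the high and low purity differentiation. The HOX genes lie higher in the 4 low purity wells and the IRX genes higher in the 3 high purity wells.

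The heart field and mesoderm progenitor list gave 4 calls towards high purity and 3 towards low purity among 18 tested, with a median of -0.05. Over all tested genes the shares were 5.82% and 10.1%. Of the tested members, 3 passed the filter through the low purity wells alone and 1 through the high purity wells alone and had to differ, and 2 of the former, HOXB1 among them, were called. FGF8, a growth factor of the second heart field and pharynx, measured 18.6, 18.5 and 10.0 TPM against 1.48, 6.22, 2.7 and 0.998 TPM (log2 fold change 2.44 ± 0.41 SE, adjusted p = 0.0021). FGF10, another factor of that field, measured 91.5, 93.4 and 88.2 TPM against 34.6, 45.2, 41.1 and 40.8 TPM (log2 fold change 1.38 ± 0.09 SE, adjusted p = 2.4e-05). ISL1, BMP2, FGF8 and FGF10 were the 4 calls towards high purity, and HOXB1 and BMP4 were among the 3 towards low purity. The early mesoderm genes TBXT, MESP1 and EOMES did not reach the level for testing.

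Signalling genes were called in both directions, against 5.82% of all tested genes called towards high purity and 10.1% towards low purity. In the WNT pathway, 3 of 27 tested genes were higher in the high purity wells and 5 in the low purity wells (median 0.21), and the latter count was 8 with edgeR. Of the tested members, 5 passed the filter through the low purity wells alone and had to differ, and 2 of these, RSPO1 and RSPO2, were among the calls. RSPO2, a secreted enhancer of WNT signalling, measured 0.435, 0.122 and 0.22 TPM against 43.9, 41.6, 38.7 and 49.3 TPM (log2 fold change -5.02 ± 0.13 SE, adjusted p = 5.6e-07). RSPO1, which acts in the same way, measured 0.741, 0.208 and 0.401 TPM against 45.5, 41.2, 36.3 and 42.9 TPM (log2 fold change -4.75 ± 0.15 SE, adjusted p = 1.2e-06). FRZB, a secreted frizzled-related antagonist, was also higher in the low purity wells (log2 fold change -3.01 ± 0.21 SE, adjusted p = 3e-05), whereas the antagonist DKK1 was higher in the high purity wells at 87.4, 87.2 and 72 TPM against 15.1, 18.6, 28.4 and 24.6 TPM (log2 fold change 2.13 ± 0.19 SE, adjusted p = 0.00012). WNT5B, a non-canonical ligand, had a log2 fold change of 2.21. Of the targets, LEF1 (-1.81) was higher in the low purity wells and SP5 (1.77) in the high purity wells. AXIN2, a target and feedback inhibitor of canonical WNT signalling, measured 9.36, 10.6 and 8.8 TPM against 21.9, 20.6, 21.8 and 22.4 TPM (log2 fold change -0.89 ± 0.08 SE, adjusted p = 0.00013).

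In the BMP and TGF-beta list, 7 of 27 tested genes were higher in the high purity wells and 3 in the low purity wells. The latter count was near the 10.1% of all tested genes. The ligands split. BMP4 measured 22.7, 18.3 and 20.0 TPM against 152, 140.1, 134 and 165 TPM (log2 fold change -2.58 ± 0.10 SE, adjusted p = 2.5e-06), BMP2 measured 269, 317 and 293 TPM against 116, 164, 153 and 115 TPM (log2 fold change 1.33 ± 0.15 SE, adjusted p = 0.00031) and BMP7 measured 82.5, 104 and 81.1 TPM against 16.2, 29.6, 30.0 and 18.5 TPM (log2 fold change 2.14 ± 0.22 SE, adjusted p = 0.00022). Among the targets, the inhibitors of differentiation ID1 (1.66), ID3 (1.36) and ID4 (1.80) were higher in the high purity wells, and ID2 measured 521, 508 and 481 TPM against 361, 389.6, 391 and 408 TPM (log2 fold change 0.61 ± 0.06 SE, adjusted p = 0.0002). The antagonist NOG had a log2 fold change of 1.68. TGFBI, which is induced by TGF-beta, was higher in the low purity wells (-2.29).

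In the Notch list, 4 of 15 tested genes were higher in the high purity wells and 2 in the low purity wells, and the first count became 2 without TMM, 8 with the well number as a block and 7 without low purity well 3. DLL4, among these calls, passed the filter through the high purity wells alone and had to differ. NOTCH2, a receptor, measured 39.8, 33.6 and 26.4 TPM against 135, 138, 137 and 152 TPM (log2 fold change -1.84 ± 0.08 SE, adjusted p = 5.4e-06). The target HES1 measured 323, 291 and 286 TPM against 151, 151, 155 and 142 TPM (log2 fold change 1.22 ± 0.06 SE, adjusted p = 8.9e-06), which was just short of the fold threshold at 0.997 without TMM. HEYL, another target, had a log2 fold change of -1.42, and the ligand DLL4 of 1.38. In the retinoic acid list, 4 of 14 tested genes were higher in the high purity wells and 2 in the low purity wells, and the first count became 2 without TMM or without low purity well 1. RDH10, which makes retinaldehyde, measured 4.56, 4.01 and 4.96 TPM against 32.5, 30.7, 27.5 and 27.8 TPM (log2 fold change -2.27 ± 0.12 SE, adjusted p = 1.1e-05). STRA6, which takes up retinol, had a log2 fold change of -1.78. The receptor RARB (1.26) and the binding protein CRABP1 (1.90) were higher in the high purity wells.

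In the FGF list, 9 of 20 tested genes were higher in the high purity wells and 1 was higher in the low purity wells (median 0.59). The count towards low purity was 2 without TMM and 3 with edgeR, and 1 tested member in each direction passed the filter through 1 group of wells alone. FGFR4 and FGFR2, both receptors, went in opposite directions: FGFR4 measured 40.1, 36.3 and 20.8 TPM against 6.24, 7.43, 8.18 and 7.59 TPM (log2 fold change 2.16 ± 0.17 SE, adjusted p = 6.1e-05), and FGFR2 measured 57.2, 48.2 and 39.8 TPM against 163, 145, 132 and 159 TPM (log2 fold change -1.40 ± 0.09 SE, adjusted p = 2.8e-05). The feedback targets SPRY4 (1.80), DUSP6 (1.03) and ETV5 (1.28) were higher in the high purity wells. FGF2, a basic fibroblast growth factor, measured 2.82, 2.03 and 2.6 TPM against 7.61, 6.58, 6.57 and 6.17 TPM (log2 fold change -0.98 ± 0.15 SE, adjusted p = 0.0014), and was called as well without high purity well 4 or low purity well 4.

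Growth genes of the IGF and imprinted list gave 5 calls towards high purity and 3 towards low purity among 18 tested (median -0.08). Without TMM the counts were 3 and 3 (median -0.29). IGF2, a fetal growth factor, measured 1.19, 1.29 and 1.72 TPM against 22.1, 18.5, 19.1 and 22.9 TPM (log2 fold change -3.00 ± 0.15 SE, adjusted p = 7.8e-06). MEST, an imprinted mesoderm gene, measured 70.6, 67.1 and 81.2 TPM against 620.0, 515, 523 and 609 TPM (log2 fold change -2.71 ± 0.13 SE, adjusted p = 6.8e-06). DLK1, an imprinted Notch-like membrane protein, was higher in the high purity wells at 301, 237 and 211 TPM against 34.9, 52.9, 51.2 and 43.2 TPM (log2 fold change 2.66 ± 0.15 SE, adjusted p = 1.1e-05). The IGF-binding proteins IGFBP2 (1.68), IGFBP4 (1.16), IGFBP6 (2.20) and IGFBP7 (1.17) had the direction of DLK1. The imprinted RNA MEG3, which lies beside DLK1, measured 35, 23 and 25.5 TPM against 31.4, 25.4, 23.2 and 26 TPM (log2 fold change 0.28 ± 0.15 SE, adjusted p = 0.16).

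Metabolic genes were called towards high purity in each of the 4 lists examined, and none of their members was called in the other direction. Of 29 tested glycolysis and hypoxia genes, 14 were called (median 0.95), and the summed TPM was 12153 to 14439 against 5051 to 6784. LDHA, which turns pyruvate into lactate, measured 786, 1029 and 747 TPM against 190.5, 286, 277 and 188 TPM (log2 fold change 2.10 ± 0.18 SE, adjusted p = 9.2e-05). SLC2A3, a high-affinity glucose transporter, measured 1201, 1274 and 993 TPM against 238, 413, 380.0 and 289 TPM (log2 fold change 2.06 ± 0.18 SE, adjusted p = 9.2e-05). GAPDH, a glycolytic enzyme that is often used as a reference gene, measured 3897, 4404 and 3923 TPM against 1495, 2090.5, 2052 and 1769.6 TPM (log2 fold change 1.38 ± 0.14 SE, adjusted p = 0.00018). The muscle enolase ENO3 (1.99) and the mitophagy receptor BNIP3 (1.80), a target of hypoxia-inducible factor, were higher too. The general glucose transporter SLC2A1 measured 159, 191 and 142 TPM against 177, 201, 190.2 and 187 TPM (log2 fold change 0.02 ± 0.08 SE, adjusted p = 0.86).

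Of 30 tested nuclear genes of the respiratory chain, 8 were called, with a median of 0.85, and 26 of the 30 were higher at adjusted p under 0.05 alone, a criterion that 48.5% of all tested genes met in either direction and 22.8% in that direction. Most of these differences lay under the fold threshold, and the count of calls was 2 without TMM and 5 without low purity well 1. COX5B, a subunit of cytochrome oxidase, measured 1889, 2004 and 2176 TPM against 682, 934, 977 and 853 TPM (log2 fold change 1.47 ± 0.15 SE, adjusted p = 0.00021). The muscle isoform COX6A2 measured 4.79, 13.3 and 18.3 TPM against 5.3, 0, 2.69 and 0 TPM (log2 fold change 2.56 ± 0.75 SE, adjusted p = 0.024). Its wells overlapped, and the call was lost when high purity well 2, high purity well 4, low purity well 2 or low purity well 4 was left out (adjusted p 0.0526 to 0.0822).

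Of 22 tested genes of fatty acid use, 9 were higher in the high purity wells (median 0.69). LPL, the lipase that frees fatty acids for uptake, measured 8.63, 4.75 and 4.21 TPM against 0.0922, 0.176, 0.491 and 0.0777 TPM (log2 fold change 2.59 ± 0.23 SE, adjusted p = 0.00011) and passed the filter through the high purity wells alone. SLC27A6, a fatty acid transporter of heart muscle, measured 14.4, 14.3 and 14.9 TPM against 1.83, 4.18, 4.18 and 2.4 TPM (log2 fold change 2.15 ± 0.23 SE, adjusted p = 0.00027). The regulators PPARGC1A (1.05) and ESRRG (1.33), which switch on mitochondrial genes, were higher as well. Of 9 tested genes of creatine and energy buffering, 6 were higher in the high purity wells (median 1.52). CKM, the muscle creatine kinase, measured 207, 258 and 206 TPM against 30.0, 54, 70.2 and 33.6 TPM (log2 fold change 2.53 ± 0.28 SE, adjusted p = 0.0003). MB, myoglobin, measured 63.2, 63.2 and 71.2 TPM against 10.3, 20.1, 16.2 and 12.1 TPM (log2 fold change 2.35 ± 0.21 SE, adjusted p = 0.00012). The enzymes that make creatine, GATM (1.52) and GAMT (1.60), moved with them. No high purity well overlapped a low purity well in any of these named genes of fatty acid and creatine use. Of all tested genes, 13.6% had every high purity well above every low purity well.

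**Figure D4:**
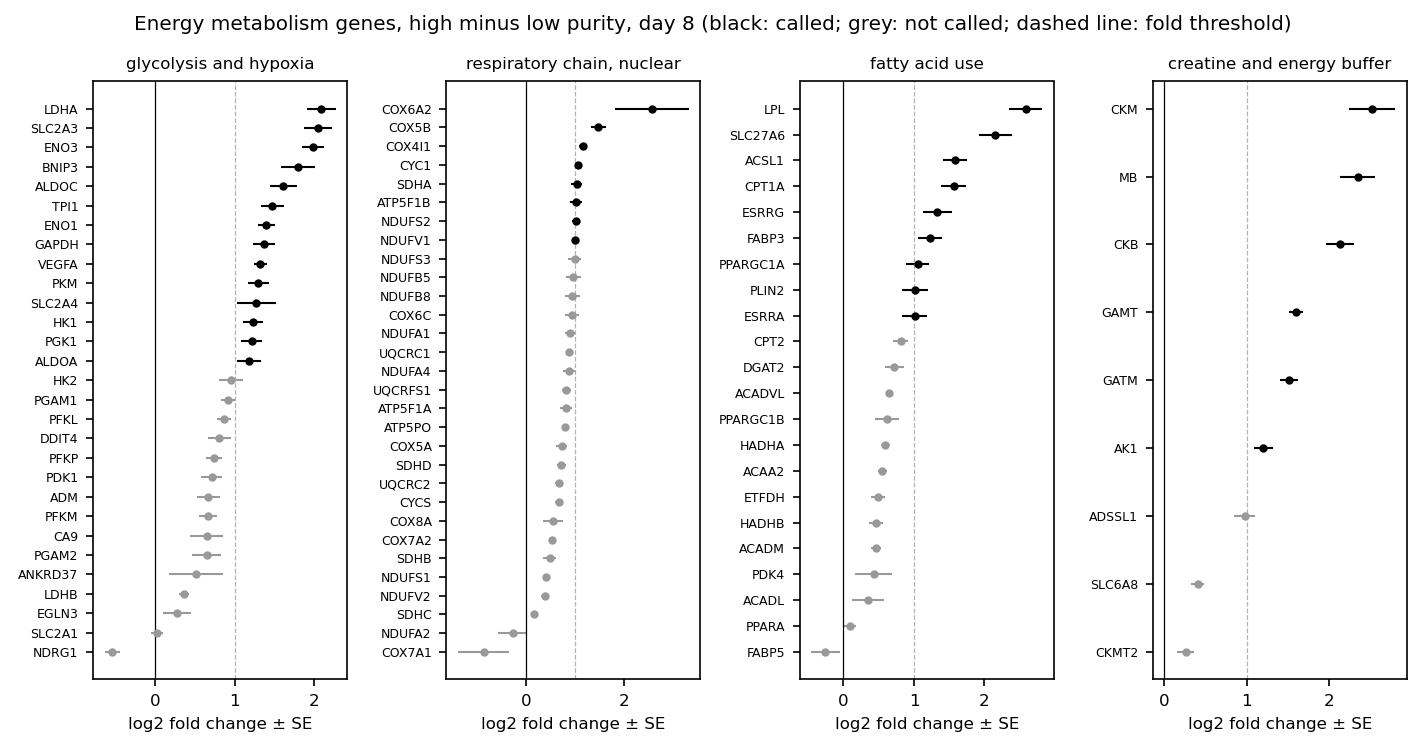
Log2 fold change (high minus low) with its standard error for the tested members of the glycolysis and hypoxia, respiratory chain, fatty acid and creatine lists; the dashed line marks a log2 fold change of 1. Black points were called and grey points were not. Most points lie to the right of 0, and many respiratory chain genes sit just to the left of the dashed line.

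Few cell cycle genes were called. Of 35 tested, 3 were higher in the low purity wells, where 10.1% of all tested genes were, and none in the high purity wells, with a median of -0.46. The count towards low purity was not above that background, and it was 7 without TMM, 6 with edgeR, 6 without high purity well 1 and 5 without low purity well 2. At adjusted p under 0.05 alone, 20 were higher in the low purity wells, against 25.7% of all tested genes, and 3 in the high purity wells. CCND2, cyclin D2, measured 152, 143 and 124 TPM against 764, 697, 676 and 806 TPM (log2 fold change -2.16 ± 0.07 SE, adjusted p = 1.3e-06). CDKN2B, an inhibitor of the kinases that cyclin D activates, measured 3.26, 4.63 and 3.11 TPM against 40.3, 30.4, 32.8 and 35 TPM (log2 fold change -2.74 ± 0.14 SE, adjusted p = 8e-06). MKI67, a marker of cycling cells, measured 51.8, 42.5 and 36.8 TPM against 92.8, 79.7, 80.4 and 81.1 TPM (log2 fold change -0.71 ± 0.09 SE, adjusted p = 0.00049), and CCND1 measured 153, 129 and 116 TPM against 69.8, 99.6, 86.2 and 79.9 TPM (log2 fold change 0.88 ± 0.11 SE, adjusted p = 0.0005).

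Of 21 tested stress and p53 genes, 8 were higher in the low purity wells and none in the high purity wells (median -0.37), and 3 members, all called, passed the filter through the low purity wells alone and had to differ. PSAT1, an enzyme of serine synthesis, measured 50.2, 35.5 and 31.3 TPM against 236, 209.7, 204 and 269 TPM (log2 fold change -2.32 ± 0.14 SE, adjusted p = 1.4e-05). ATF3, a stress-induced transcription factor, measured 6.29, 5.85 and 5.5 TPM against 36.3, 30.0, 29.4 and 31.4 TPM (log2 fold change -2.04 ± 0.10 SE, adjusted p = 5.8e-06). PHGDH (-1.98), TRIB3 (-1.69), CHAC1 (-1.61), SESN2 (-1.31) and ASNS (-1.29), all targets of the amino acid response factor ATF4, had the same direction. ATF4 itself measured 42.4, 38 and 35.9 TPM against 76.7, 63.7, 68.3 and 77.5 TPM (log2 fold change -0.64 ± 0.09 SE, adjusted p = 0.00071). The p53 targets CDKN1A and MDM2 were not called (log2 fold changes -0.02 and -0.17), whereas FAS was (-1.34).

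Beyond the lists, the protein-coding genes of at least 10 TPM with the largest changes included signalling antagonists, adhesion genes and enzymes. SOST, a WNT antagonist known from bone, measured 15.4, 16.4 and 13.5 TPM against 0.715, 0.273, 0.109 and 0.241 TPM (log2 fold change 3.75 ± 0.18 SE, adjusted p = 5.8e-06). KIT, the receptor of stem cell factor, measured 88.3, 78.8 and 62.1 TPM against 6.79, 10.7, 8.5 and 8.5 TPM (log2 fold change 3.23 ± 0.13 SE, adjusted p = 2.6e-06). RIPPLY3, a repressor of T-box factors in the pharynx, had a log2 fold change of 3.85. In the other direction, ALOX15, a lipoxygenase, measured 0.378, 0.319 and 0.689 TPM against 82.4, 72.5, 68.8 and 82.6 TPM (log2 fold change -5.59 ± 0.14 SE, adjusted p = 4.7e-07). ITGA8 and its ligand NPNT, an integrin subunit and a matrix protein of kidney and mesenchyme, measured 3.53, 3.25 and 3.02 and 9.13, 10.1 and 8.1 TPM in the high purity wells and 168, 149, 142 and 163 and 481, 358, 372 and 500.3 TPM in the low purity wells, with log2 fold changes of -5.00 and -5.18. The chemokine CXCL14 (-5.44), the desmosomal cadherin DSC3 (-5.24) and the WNT and FGF modulator SHISA3 (-5.00) were also among the 12 largest. SOST passed the filter through the high purity wells alone, and ALOX15 and SHISA3 through the low purity wells alone, so each had to differ.

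Which differences opened between day 6, when insulin was added, and day 8 was tested as the day 8 difference minus the day 6 difference, with 8 wells of day 6 (4 per class) and the 7 wells of day 8. Of 21489 genes tested, 880 were called (4.1%), 388 shifting towards high purity (1.81%) and 492 towards low purity (2.29%). Without TMM the split was 241 against 881, so the share of each direction depended on the scaling. The genes ranked by size were called, protein-coding and had a group mean of at least 10 TPM. Their wells did not overlap on day 6, on day 8 or on both. Of these ranked genes, SLN had the largest shift towards high purity, 3.63 ± 0.40 SE, adjusted p = 8.4e-05. It measured 0 to 1.06 TPM in the high purity wells and 46.3 to 119 TPM in the low purity wells on day 6, and 3.43 to 6.69 TPM and 22.3 to 28.2 TPM on day 8. A gap in favour of the low purity wells thus narrowed. MYL3 separated the groups only on the later day: it measured 35.5 to 257 TPM in the high purity wells and 74.5 to 271 TPM in the low purity wells on day 6 and 2731 to 3412 TPM and 585 to 1333 TPM on day 8 (2.79 ± 0.81 SE, adjusted p = 0.036). As its wells overlapped on day 6, the ranking required them to be apart on day 8. The call of MYL3 was lost when any of 8 wells was left out (high purity well 2 of day 6, high purity wells 2 and 4 of day 8, low purity wells 1, 2 and 3 of day 6 and low purity wells 1 and 4 of day 8), with adjusted p of 0.060 to 0.077. ESM1, an endothelial proteoglycan, measured 5.11 to 10.0 TPM against 1.52 to 4.8 TPM on day 6 and 19.7 to 29 TPM against 0.299 to 0.597 TPM on day 8 (3.10 ± 0.37 SE, adjusted p = 0.00015).

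Of the same ranked genes, ACTG2 had the largest shift towards low purity, -4.29 ± 0.47 SE, adjusted p = 7.4e-05. On day 6 it measured 1.02 to 4.61 TPM in the high purity wells and 1.88 to 2.66 TPM in the low purity wells, which overlapped, and on day 8 0 to 1.05 TPM and 26.2 to 38.3 TPM. PSAT1 had its groups apart on both days but in opposite order, going from 55.4 to 64.8 TPM and 42.7 to 45 TPM to 31.3 to 50.2 TPM and 204 to 269 TPM (-2.75 ± 0.16 SE, adjusted p = 5e-07). PTGIS, prostacyclin synthase, went from 25 to 38.9 TPM and 28.1 to 46.2 TPM to 3.92 to 7.12 TPM and 45.4 to 61 TPM (-2.71 ± 0.25 SE, adjusted p = 1.8e-05). PMAIP1, a pro-apoptotic target of p53 and ATF4, had a shift of -2.86 ± 0.31 SE, adjusted p = 6.8e-05, and FAM129A, a stress-responsive gene, of -2.93 ± 0.23 SE, adjusted p = 5.1e-06. All of these genes had every low purity well above every high purity well on day 8. For ACTG2 and PTGIS, whose wells overlapped on day 6, the ranking required wells that were apart on day 8. In the other direction, ADPRHL1, a heart-specific protein needed for myofibril assembly, shifted by 2.92 ± 0.35 SE, adjusted p = 0.00017, and A2M, a protease inhibitor, by 2.76 ± 0.39 SE, adjusted p = 0.00054. On day 8 A2M itself did not separate the groups, at 100.2, 85.3 and 75.5 TPM against 70.6, 128, 111 and 80.7 TPM (log2 fold change 0.09 ± 0.19 SE, adjusted p = 0.72), and its difference turned to -0.13 without TMM.

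Among the main cardiac markers, the change of the difference from day 6 to day 8 was 1.23 ± 0.41 SE, adjusted p = 0.062, for TNNT2 and 1.11 ± 0.37 SE, adjusted p = 0.062, for TNNI3. It was 0.34 ± 0.45 SE, adjusted p = 0.69, for MYH6 and 0.42 ± 0.44 SE, adjusted p = 0.6, for NKX2-5, and none of these was called. WT1 shifted by -1.08 ± 0.27 SE, adjusted p = 0.017, and was called. It measured 0.193 to 0.479 TPM against 24.7 to 52.3 TPM on day 6 and 0.208 to 0.478 TPM against 72.3 to 87 TPM on day 8. The wells of WT1 were therefore apart on day 6 already.

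**Figure D5:**
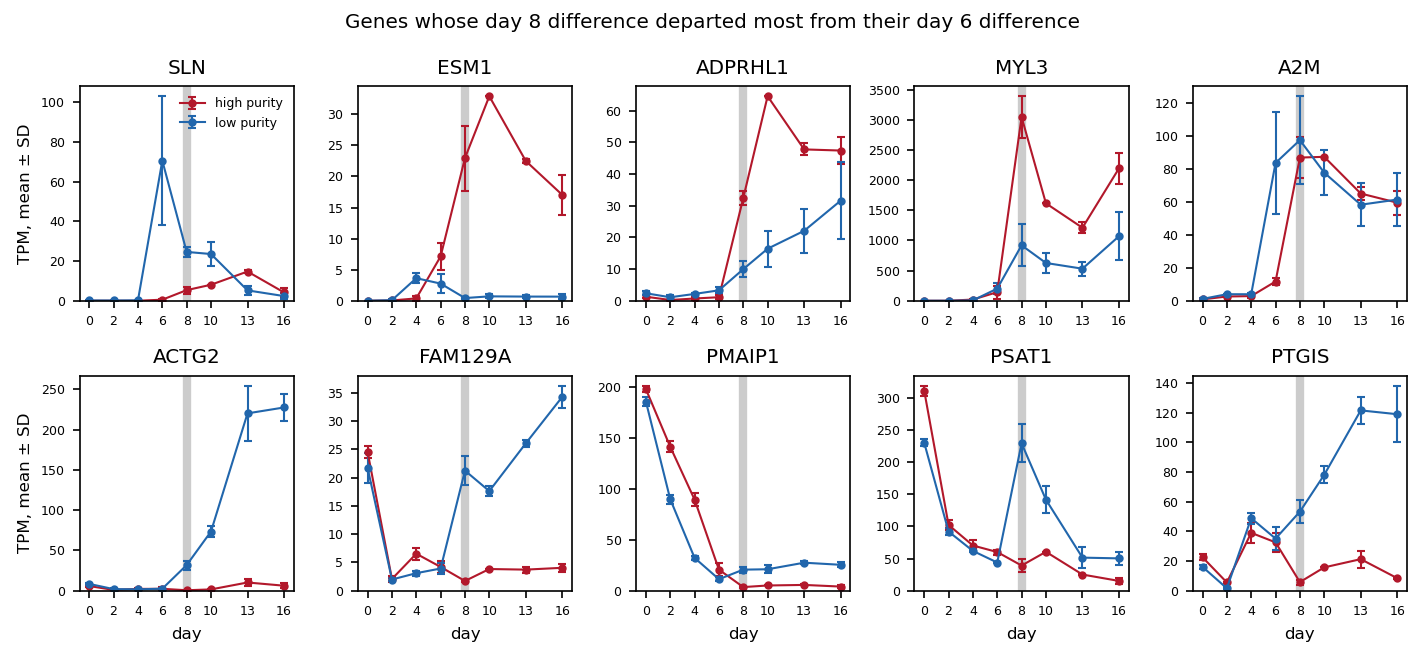
Mean TPM with standard deviation from day 0 to day 16 in the high and low purity wells for the 10 genes with the largest change in the difference between day 6 and day 8; the high purity group has 1 well on day 10 and no error bar there. The curves of ACTG2, PSAT1 and PTGIS separate at day 8, and those of SLN come closer together.

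The direction of the day 8 differences was compared with the neighbouring days and with the RNA-only experiment. Differences on the other days and in the other lines were taken from mean TPM as deposited, without TMM scaling. Of the genes called towards high purity on day 8, 92.1% were higher in the high purity wells on day 6, against 51.4% of all tested genes, and of those called towards low purity 92.4% were higher in the low purity wells, against 48.6%. On day 10, which had 1 high purity well, the shares were 89.8% against 25.4% and 97.7% against 74.6%. In the RNA-only experiment, which had 1 library per class and line and so allowed no test, H9 embryonic stem cells on day 7 gave 88.3% against 54.3% for the first set and 74.1% against 45.7% for the second. IMR90-4 induced pluripotent cells on day 7 gave 41.1% against 48.4% and 44.9% against 51.6%. The WTC11 pair of this experiment on day 6 gave 53.6% against 42.6% and 56.3% against 57.4%. Passages of the high and low purity libraries were 58 and 55 in H9, 55 and 75 in IMR90-4 and 81 and 69 in WTC11. Passage 69 is also that of the low purity wells of day 8, and the labels do not say whether they share a differentiation. The direction seen on day 8 was thus more common in H9 than over all genes for both sets, less common in IMR90-4 for both, and in the RNA-only WTC11 pair more common for the first set alone.

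Single genes differed between the lines. The log2 difference between the high and low purity library for TNNT2 was 2.16 in H9, 0.64 in IMR90-4 and 1.44 in WTC11. For WT1 it was -5.08 in H9, -0.06 in IMR90-4 and -0.38 in WTC11, and for LUM it was -6.02 in H9, -1.57 in IMR90-4 and -2.02 in WTC11. WT1 was barely detected in the high and low purity libraries of IMR90-4 (0.159 and 0.205 TPM) and of WTC11 (0.183 and 0.542 TPM). For NKX2-5 the values were 4.89 in H9, 0.69 in IMR90-4 and 1.74 in WTC11. TTR gave 3.67 in H9, -1.72 in IMR90-4 and -2.07 in WTC11, and HOXB4 gave -3.04 in H9, 0.49 in IMR90-4 and 0.78 in WTC11. TNNT2, NKX2-5 and LUM kept the day 8 direction in all 3 lines, and TTR and HOXB4 kept it in H9 alone. These are values of single libraries at an earlier step than day 8, made with a total RNA kit and compared without TMM scaling.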

How the data were processed

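Poly(A) RNA libraries of 3 high purity and 4 low purity wells of WTC11 cells on day 8 were analysed, with 8 wells of day 6 for 1 contrast. Per the submitters' processing notes, reads were handled with STAR 2.5.3a and featureCounts 2.0.3 on hg38; how TPM was computed and the annotation release are not given in the sources used here. The authors deposited a table of TPM and a table of read counts over 43388 genes. Of the 56 columns of deposited counts, 0 matched the TPM column that carries their name, so counts were not used under their names and all main tests used the deposited TPM. The ratio of counts to TPM in the RNA-only tables gave lengths for 37194 genes. With them, 100% of the TPM values of the 7 wells gave whole reads within 0.01, and these recovered reads gave the depth and the edgeR and DESeq2 alternatives. Depth was 9816603 to 17974520 reads per well.

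After TMM scaling with edgeR 4.0.16, log2(TPM + 1) was modelled in limma 3.58.1 with its trend option (R 4.3.3), leaving 5 residual degrees of freedom. Genes with at least 1 TPM in 3 wells were tested, p-values were adjusted by the Benjamini-Hochberg method over all tested genes, and calls required adjusted p below 0.05 together with a log2 fold change of 1 or more in size. TNNT2 was also tested with a two-sided exact permutation test. The day 8 minus day 6 contrast used the same model over 15 wells. In data simulated from the levels and depths of these wells (18714 genes), 100% of genes changed 4-fold and 30% of genes changed 2-fold were called, with 9 of 18514 unchanged genes. Every simulated gene was given the same assumed spread between wells, and changes were placed only on genes above a set number of reads. These shares therefore do not cover genes with few reads or with a wider spread.

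The comparison, its 31 gene lists (640 genes) and the rules were chosen with earlier results of these data known, and list counts are descriptions. Genes named by rule were the 12 largest changes in each direction among called protein-coding genes with a mean of at least 10 TPM and wells that did not overlap, the 2 largest calls per list and direction with each list's most abundant member, 13 cardiac and other markers, and the 5 largest day 8 minus day 6 changes in each direction. The last were also called and protein-coding, with a group mean of at least 10 TPM and wells that did not overlap on day 6 or day 8. Other list members were named after their values were seen, and a few genes that the rule or the lists hold are not reported here by name. Promoter sequences are from RefSeq (GRCh38.p14). Alternatives were other scalings, filters and pseudocounts, no fold threshold, a fit over all 56 wells, a block for the well number, edgeR, DESeq2 and leaving out each well. Genes annotated at more than 1 place share reads with their copies and are uncertain.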

Additional observations from a re-analysis of the deposited data

Results flagged for a closer look

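In 130 sets of 4 low purity wells of named genes, 3 had a well far from the rest, fewer than the about 5% of groups that chance gives. COL1A1 had its highest low purity well at 1854 TPM. DLL4 had its lowest low purity well at 0.485 TPM, and MYL2 had its highest low purity well at 3.02 TPM; both are low levels.

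The difference between the groups changed between day 6 and day 8, by limma's test of the day 8 minus day 6 contrast, for the 10 genes chosen by size among the ranked protein-coding genes. It moved towards high purity by 3.63 for SLN, 3.10 for ESM1, 2.92 for ADPRHL1, 2.79 for MYL3 and 2.76 for A2M on the log2 scale. For ACTG2 it moved by -4.29, for FAM129A by -2.93, for PMAIP1 by -2.86, for PSAT1 by -2.75 and for PTGIS by -2.71. The wells of the 2 days came from the same differentiations.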

How the results depend on the processing

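TNNT2 kept its direction and its call in all 18 alternatives run for day 8, with log2 fold changes of 1.12 to 1.53. The 3089 calls of day 8 became 2053 with a filter at 5 TPM (719 higher in high purity, fewer genes being tested) and 9402 without the fold threshold (4420 and 4982), 3397 without TMM, 3939 with a pseudocount of 0.1, 3983 with edgeR and 3894 with DESeq2. Leaving out each well in turn gave 2862 to 3098. The 880 changes from day 6 to day 8 became 2753 without the fold threshold (1285 and 1468), and without TMM the directions were 241 and 881; leaving out each well gave 785 to 990. The cause of the shift without TMM was not tested.

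Of 111 called named genes, 105 kept their call in every alternative in which they were tested. Genes such as CD34 and SOST fell under the filter when a high purity well was left out and were not tested there. Directions reversed for 3 genes that were not called: A2M at -0.13, MYH7 at -0.20 and PLN at -0.11 without TMM, and MYH7 at -0.006302 with the filter at 5 TPM. Leaving out each well, A2M ranged from -0.049 (without low purity well 1) to 0.22, MYH7 from -0.14 (without low purity well 1, and also negative at -0.13 and -0.09 without well 4 of either group) to 0.24, and PLN from -0.003412 (without low purity well 1) to 0.24. Epicardial calls towards high purity were 2 without high purity well 1, and endoderm calls towards low purity were 2 without high purity well 4.

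Wells with the same number did not deviate together (r of 0.0239, 0.023 and -0.0249 for wells 1, 2 and 4), so the numbers were not taken as pairs. With the well number as a replicate block, 3067 genes were called on day 8 (1174 and 1893), 858 for the change from day 6, and TNNT2 had a log2 fold change of 1.38. The calls of COX6A2 (adjusted p = 0.0733) and of the MYL3 change (2.71, adjusted p = 0.0824) were lost, and LIN28A was called (1.02).

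Precision is limited by 3 and 4 wells of 1 differentiation each; 244 of the called genes had at most 10 reads in every well.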

Other observations

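The following groups were chosen after their values were seen and get no test of their own. Of all tested genes, 5.82% were called towards high purity and 10.1% towards low purity. The Iroquois homeobox genes, which pattern the ventricle and other organs, are 6 genes in 2 clusters on chromosomes 5 and 16. On day 8, 5 were tested and 5 were higher in the high purity wells: IRX1 (3.39), IRX2 (2.29), IRX3 (2.91), IRX4 (2.46) and IRX5 (3.07), all log2 fold changes. IRX3 measured 220.5, 249 and 289 TPM in the high purity wells and 31.1, 48.7, 43.5 and 32.1 TPM in the low purity wells, and IRX5 measured 16.8, 24.7 and 26.3 TPM against 2.27, 2.62, 2.81 and 1.21 TPM. The HOX genes of the report had the opposite direction in the same wells.

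Of 8 tested genes of serine synthesis, one-carbon metabolism and amino acid supply, 7 were higher in the low purity wells. ASNS, among them, passed the filter through the low purity wells alone and had to differ. SLC7A11, the cystine transporter, measured 5.4, 5.21 and 3.95 TPM against 57.3, 48, 48.1 and 58.9 TPM (log2 fold change -3.01 ± 0.10 SE, adjusted p = 1.6e-06), and MTHFD2, a mitochondrial folate enzyme, measured 39.5, 33.9 and 26.9 TPM against 167, 160.5, 156 and 185 TPM (log2 fold change -2.08 ± 0.09 SE, adjusted p = 3.2e-06). PSPH, the last enzyme of serine synthesis, measured 39.1, 31.4 and 25.7 TPM against 39.6, 43.6, 43.2 and 46.6 TPM (log2 fold change -0.22 ± 0.09 SE, adjusted p = 0.093). Of 24 claudins, which seal epithelia, 15 were tested, 6 were higher in the high purity wells (CLDN3, CLDN4, CLDN6, CLDN7, CLDN19 and CLDN23) and 1, CLDN2, was higher in the low purity wells. CLDN2 passed the filter through the low purity wells alone and had to differ. CLDN6 measured 106, 95.9 and 66.5 TPM against 31, 32.8, 34.4 and 30.8 TPM (log2 fold change 1.64 ± 0.10 SE, adjusted p = 2.1e-05), and CLDN2 measured 0, 0.125 and 0.0900 TPM against 1.43, 1.46, 1.75 and 0.725 TPM (log2 fold change -1.04 ± 0.21 SE, adjusted p = 0.0047).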
